A study of Mus musculus with 2 samples.

Results

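A set of 9 genes best known from neurons was followed in the cells of mouse pancreatic islets. They are Cntnap2, Cntnap5a, Cntnap5c, Nlgn1, Nrcam, Ncam1, Ncam2, Nrg1 and Nrg3, and they were taken by symbol from the 22383 features of the count matrices, where all 9 were found. The members were chosen by their measured levels in these same libraries and by how these differed between them, so their levels and ratios are given as a description and carry no test. Nrg1 was listed as 2 features, of which the second (ENSMUSG00000118541) held 0 UMIs in every class of both libraries, which in control insulin cells allows a level of up to 0.0165 UMIs per 1000000 (3 counts, counting error only).

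The data were 2 single-cell RNA libraries of islets, 1 per group, from C57BL/6N mice aged 5 weeks. The TBL/RβKO group, spelled TBL/RBKO in the labels, was Ins1Cre TBL1X fl/fl TBL1XR1 fl/fl, with Cre inserted at the Ins1 locus so that deletion was aimed at β-cells. The control group, labelled wildtype, was made up of littermates without Cre, and in each group 150 islets were pooled from 4 mice. With 1 pooled library per group there was no replicate, so every interval below is a 95% interval for counting error alone, and differences between the 2 libraries cannot be told apart from differences between any 2 preparations.

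Cell adhesion molecules hold neighbouring cells together and carry signals between them. In the nervous system the contactin-associated proteins, the neuroligins and the immunoglobulin-type molecules of the NCAM and L1 families arrange axons, myelin and synapses. The neuregulins Nrg1 and Nrg3 are ligands of ErbB receptor kinases and belong with these genes through their neuronal use rather than as adhesion molecules in the strict sense. Islet endocrine cells share much of the neuronal secretory and adhesion machinery, and in mouse islets Ncam1 is known for its part in keeping α-cells at the islet rim.

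Kept cells had more than 2500 detected genes and under 10% mitochondrial UMIs, with no upper limit on genes, which left 4747 control cells and 4179 cells of the library labelled TBL/RβKO. A UMI marks 1 captured transcript. Each cell was placed in the class of its largest hormone, counted per 10000 UMIs, when that hormone reached 100. This gave 2877 control and 1338 other insulin cells (Ins1 plus Ins2), 1284 and 1546 glucagon cells, 223 and 374 somatostatin cells, and 259 and 495 polypeptide cells (Ppy). Cells of the 2 libraries had a median of 40626 and 27425 UMIs, and 12 kept barcodes occurred in both. Insulin cells of the control carried a median of 5089 insulin UMIs per 10000 against 2365 in the library labelled TBL/RβKO, and Ppy had a median of 2.87 against 107. Levels are UMIs per 1000000 UMIs of the class sum (CPM), and hormones with mitochondrial genes took 58.4% (control) and 43.0% of these sums in insulin cells.

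The class names were checked against markers. Insulin cells held all 6 β-cell markers at 10 CPM or more in both libraries, although Mafa, a β-cell transcription factor, stood at 463 CPM in control and 85.5 CPM in the other insulin cells. Markers of other cells differed too, and in insulin cells the 3 polypeptide-cell markers summed to 3895 and 33242 CPM, the 5 α-cell markers to 526 and 1801 CPM, the 5 ductal markers to 183 and 650 CPM, and the 5 macrophage markers to 64.9 and 21.95 CPM. Their part in the members' values was not tested.

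UMIs of the targeted genes went against the label, while the paper reports lower Tbl1x and Tbl1xr1 by qPCR in TBL/RβKO islets of this age. In insulin cells Tbl1x stood at 97.0 CPM in the control and 351 CPM in the library labelled TBL/RβKO, and Tbl1xr1 at 20.0 and 129 CPM. The position of the deleted exons relative to the counted transcript ends is not given in the sources used here. Plus-strand Cre UMIs went with the label and numbered 3247, over 329 barcodes, against 0 in control barcodes. Because of the Tbl1x and Tbl1xr1 levels the second library is named by its label throughout, and each direction below is between libraries.

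The genes share a long span in the genome, which the list did not use. On GRCm39 (GENCODE M39), Cntnap2 lies at chr6:45036291-47281147 on the plus strand and spans 2245 kb, of which exons cover 0.458%. Nrg3 (chr14:38087063-39196036, minus) and Nrg1 (chr8:32303906-33374825, minus) each span over 1000 kb of sequence, at 1109 and 1071 kb. Nlgn1 (chr3:25480379-26386609, minus) covers 906 kb, Cntnap5a (chr1:115612486-116515053, plus) 903 kb and Cntnap5c (chr17:58076142-58718624, plus) 642 kb. The NCAM and L1 family genes are shorter, with Ncam2 (chr16:80997585-81425532, plus) at 428 kb, Ncam1 (chr9:49413436-49710357, minus) at 297 kb and Nrcam (chr12:44375287-44651976, plus) at 277 kb. All are protein-coding, and even the shortest is at least as long as 97.1% of matched genes. Intronic UMIs, which the counting software includes by default, could therefore come from a wide stretch of each gene, and the files do not say where on a gene a UMI fell. Cntnap5a, Cntnap5b and Cntnap5c are close relatives, so UMIs shared among them are uncertain.

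Promoter sequence was available for 5 of the 9 symbols in the RefSeq table (GRCm38.p6), as 7 entries for Cntnap2, Nlgn1, Nrcam, Nrg3 and Ncam2. The entries of Cntnap2 and Ncam2 are shown because these were the members past 2-fold in insulin cells, in opposite directions. Each is the 250 bases before the RefSeq start, which for Cntnap2 lies inside the annotated span, and was placed by its single match to GRCm39 on the plus strand at chr6:45036745-45036994 and chr16:80997335-80997584, and capitals mark CG pairs.
Cntnap2: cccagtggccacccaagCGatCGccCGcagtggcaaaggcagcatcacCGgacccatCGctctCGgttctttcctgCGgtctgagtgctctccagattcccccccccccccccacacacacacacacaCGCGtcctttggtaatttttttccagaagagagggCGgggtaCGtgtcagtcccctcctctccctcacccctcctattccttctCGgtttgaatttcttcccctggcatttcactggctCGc
Ncam2: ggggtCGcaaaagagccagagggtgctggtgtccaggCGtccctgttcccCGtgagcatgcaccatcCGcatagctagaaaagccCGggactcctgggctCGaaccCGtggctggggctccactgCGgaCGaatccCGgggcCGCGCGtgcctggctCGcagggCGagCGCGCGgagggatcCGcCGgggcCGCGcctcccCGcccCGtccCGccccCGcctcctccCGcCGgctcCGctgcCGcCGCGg
The Ncam2 window holds 32 CG pairs and 75.2% G or C, and the Cntnap2 window 13 pairs and 59.6%, against a median of 6 pairs and 52.4% over 32841 promoters. A second Cntnap2 entry near the 3′ end of the gene (chr6:47221080-47221329) holds 3 pairs. None of the 7 windows holds the letters TATAAA, known from many core promoters, on either strand, as 12.4% of all promoter windows do. Nor do they hold TGCTGAC, a MAF element, which occurs in 3.81% of all windows on either strand. The E-box CAGATG, found in 14.5% of all windows, was absent from them as well.

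Each gene had its own pattern over the hormone classes. Cntnap2, which in axons gathers potassium channels beside the nodes of Ranvier, was highest in control insulin cells at 574 CPM (571 to 578). Control somatostatin cells followed at 378 CPM, polypeptide cells at 95.6 CPM and glucagon cells at 74.6 CPM, with no overlap of intervals. In the library labelled TBL/RβKO the order of the upper pair was turned, with 246 CPM in somatostatin cells (236 to 255) and 227 CPM in insulin cells (224 to 230). Polypeptide cells then stood at 71.4 CPM and glucagon cells at 35.5 CPM. Cntnap2 was thus the single member whose control level was highest in insulin cells.

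**Figure D1:**
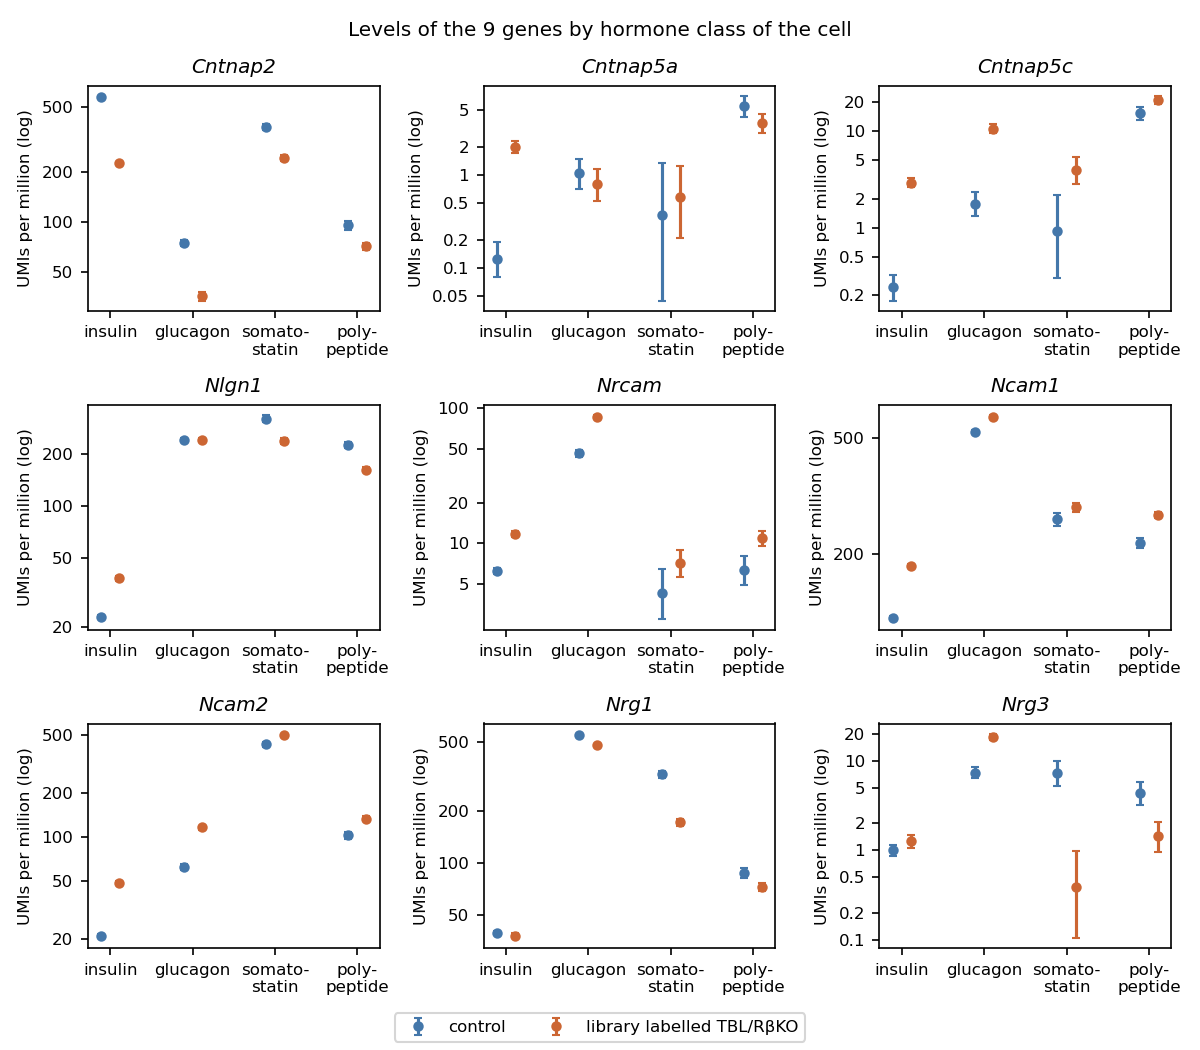
Level of each gene in CPM of the class sum (log axis) in the 4 hormone classes, for the control (blue) and the library labelled TBL/RβKO (orange), with 95% Poisson intervals. Cntnap2 is highest in control insulin cells at 574 CPM, while Ncam1, Nrg1 and Nrcam are highest in glucagon cells and Ncam2 in somatostatin cells of both libraries.

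Glucagon cells held the highest levels of Ncam1, Nrg1 and Nrcam in both libraries. Ncam1, a homophilic adhesion molecule that can carry polysialic acid, stood at 524 CPM in control glucagon cells and 589 CPM in those of the other library. Its lowest level was in insulin cells, at 121 and 182 CPM. Somatostatin cells (263 and 289 CPM) and polypeptide cells (219 and 272 CPM) lay between, and in the library labelled TBL/RβKO the intervals of these neighbours met (278.8 to 299.5 and 264.6 to 278.8 CPM).

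Nrg1, the ligand of ErbB3 and ErbB4, was at 548 CPM in control glucagon cells and 39.6 CPM in control insulin cells, a 13.9-fold gap. The same values in the library labelled TBL/RβKO were 480 and 38.1 CPM, a 12.6-fold gap. Somatostatin cells came second with 325 and 171 CPM, followed by polypeptide cells with 87.2 and 72.7 CPM. Nrcam, the L1 family member that binds ankyrins inside the cell, was at 46.3 and 86.1 CPM in glucagon cells and at no more than 11.7 CPM in any other hormone class.

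Somatostatin cells were the place of highest Ncam2, an NCAM relative best known from olfactory axons. It stood at 436 CPM in control and 499 CPM in the other somatostatin cells, against 103 and 134 CPM in polypeptide cells, 62.4 and 117 CPM in glucagon cells and 21.1 and 48.8 CPM in insulin cells. Control somatostatin cells thus exceeded control insulin cells 20.7-fold, and the gap was 10.2-fold in the library labelled TBL/RβKO. Nlgn1, the synaptic partner of the neurexins, was spread over the non-β classes, with 321 CPM in somatostatin, 242 CPM in glucagon and 227 CPM in polypeptide cells of the control. In the library labelled TBL/RβKO glucagon (241 CPM) and somatostatin cells (239 CPM) were level within their intervals and polypeptide cells stood at 163 CPM. Insulin cells held the least Nlgn1, at 22.8 and 38.3 CPM.

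The other 3 members were sparse. Cntnap5c, whose role is little described, was highest in polypeptide cells at 15.5 CPM in the control and 21.1 CPM in the other library. Cntnap5a, of the same family, was also highest there, at 5.41 and 3.58 CPM, from 60 and 75 UMIs in all. Nrg3, a ligand of ErbB4, reached 18.5 CPM in glucagon cells of the library labelled TBL/RβKO and 7.33 CPM in the control ones. Its control levels in glucagon and somatostatin cells (7.28 CPM) did not differ beyond their intervals.

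How many cells carried a transcript was compared after each cell had been thinned to 5000 UMIs, a depth that every kept cell reached. Ncam1 was the most widely found, in 88.2% of control and 90.5% of the other glucagon cells. In insulin cells a Cntnap2 UMI remained in 72.8% of control cells (71.1% to 74.4%) and 41.4% (38.7% to 44.1%) of the other cells. Unthinned shares were 93.7% and 76.6%. Nrg1 was found in 57.7% and 51.4% of glucagon cells but 11.5% and 10.0% of insulin cells, and the latter intervals overlap. Ncam2 was found in 5.39% of control and 13.5% of the other insulin cells, and Nlgn1 in 7.404% and 12.2%. A hormone-positive cell carried on average 1.45 and 1.40 members at this depth among insulin cells, and 2.45 and 2.47 among glucagon cells.

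**Figure D2:**
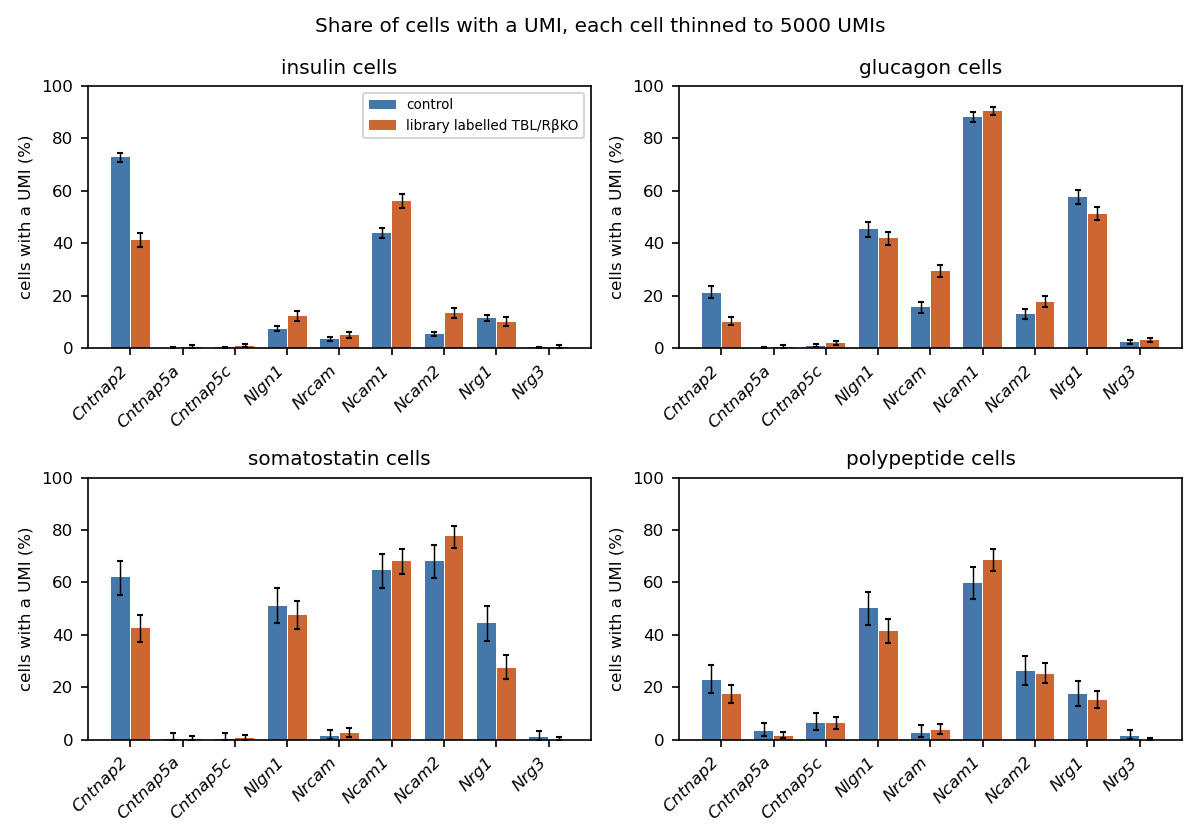
Share of cells (%) with at least 1 UMI of each gene after thinning each cell to 5000 UMIs, by hormone class, for the control (blue) and the library labelled TBL/RβKO (orange), with exact binomial 95% intervals. Cntnap2 is found in 72.8% of control and 41.4% of the other insulin cells, and Ncam1 in 88.2% and 90.5% of glucagon cells.

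Non-endocrine cells were used as a background for such shares, which free RNA can raise. Whether such cells express some of the members themselves was not tested. The cells were led by markers of immune, vascular, stromal or ductal types and had no hormone at the limit. They numbered 94 control and 266 other cells, with a median of 26828 and 21794 UMIs. They held 20.1 CPM of Cntnap2 in the control and 2.15 CPM in the library labelled TBL/RβKO, with a UMI in 42.6% and 5.64% of unthinned cells. The control background stands beside 74.6 CPM of Cntnap2 in control glucagon cells, and taking each library's background away left 54.5 and 33.4 CPM there. Ncam1 was at 12.7 and 19.8 CPM in the non-endocrine cells, Nrg1 at 8.12 and 7.26 CPM and Nlgn1 at 3.88 and 1.61 CPM. These were not even over cells, as 1 control cell held 10 of 11 Nlgn1 UMIs and 1 held 15 of 23 Nrg1 UMIs, whereas no cell held more than 4 of the 57 Cntnap2 UMIs. In the library labelled TBL/RβKO Ncam1 also differed between these types. It was at 31.5 CPM in ductal, 28.0 in B, 21 in stromal, 2.00 in macrophage and 1.49 in endothelial cells, and 5 T cells held 2 UMIs. The other members stayed under 2 CPM in the 94 and 266 cells.

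The remaining no-hormone cells were not such a background. In the library labelled TBL/RβKO 158 of them took no name from any marker list and held 587 CPM of Ncam1, and in the control 8 cells did, at 263 CPM. Neuron and Schwann cell markers were looked for because these cells use most of the genes. Summed over 6 neuron markers, insulin cells held 87.4 and 154 CPM, of which 69.4 and 128 CPM came from Elavl4, which encodes an RNA-binding protein of neurons. The peripheral neuron marker Prph was at 0.0275 and 0.0297 CPM there. Over 7 Schwann markers the sums were 5.91 and 8.73 CPM. Only 1 control cell and 2 cells of the other library were placed with neurons, and 1 control cell with Schwann cells.

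The comparison between the libraries asked how the members differed in each hormone class. Counting genes at 10 CPM or more in either library, the median log2 ratio of all genes (the library labelled TBL/RβKO over control) was 0.31 in insulin cells, 0.10 in glucagon cells, 0.02 in somatostatin cells and 0.26 in polypeptide cells. Ratios of members are therefore given beside these medians. This level was passed by 6 members in insulin cells, 8 in glucagon cells, 5 in somatostatin cells and 7 in polypeptide cells.

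In insulin cells Cntnap2 was lower in the library labelled TBL/RβKO, with a log2 ratio of -1.34 (-1.36 to -1.32), a 2.53-fold gap, or -1.65 relative to the median of all genes. Of the 7918 genes, 0.669% lay at or under that ratio. Ncam2 was 2.32-fold higher (log2 1.21, 1.15 to 1.28), which came to 0.90 relative to the median and so was under 2-fold on that scale. One of the 6 members was thus higher and 1 lower by 2-fold, where 8.27% of all genes were higher and 1.25% lower. As the list was drawn from these values, the counts describe it and show nothing more.

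The other 4 members at this level were within 2-fold in insulin cells. Nrcam had a log2 ratio of 0.91, from 1132 and 1178 UMIs, Nlgn1 0.75 and Ncam1 0.58. Nrg1 was at -0.06 on the CPM scale and at -0.37 relative to the median, with 12.6% of genes at or under it. When cells with 6000 or more detected genes were left out, Nlgn1 turned to -0.18 and Nrg1 to -1.26. This turn came from cells with 2500 to 4000 genes, 210 control and 50 other cells, which held 540 and 11 UMIs of Nlgn1 and 1156 and 14 UMIs of Nrg1. From 4000 to 6000 genes Nlgn1 was at 0.99 and Nrg1 at -0.19, and with 6000 or more at 0.70 and 0.03. Cntnap5a and Cntnap5c were below the 10 CPM level. Cntnap5a had 23 UMIs in 17 control insulin cells and 201 UMIs in 53 cells of the other library (0.126 and 1.99 CPM), and 38 of these UMIs sat in 1 cell. Cntnap5c had 44 and 297 UMIs (0.242 and 2.94 CPM) in 20 and 72 cells.

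**Figure D3:**
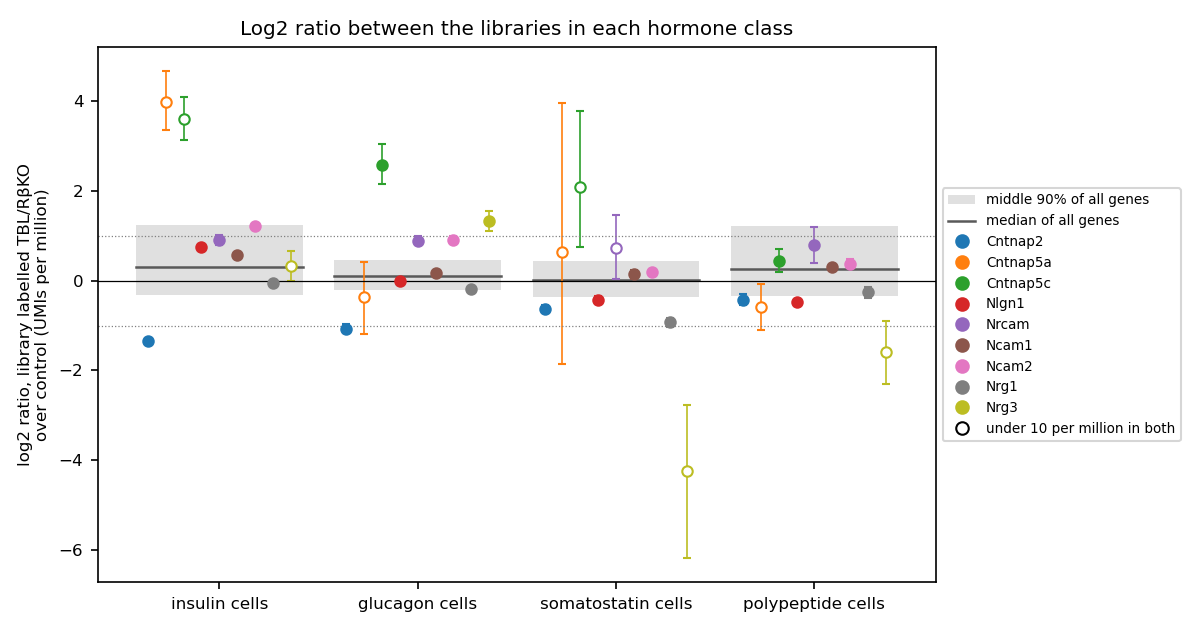
Log2 ratio of CPM, the library labelled TBL/RβKO over control, for the 9 genes in each hormone class, with exact 95% intervals for counting error. Grey bands hold the middle 90% of all genes at 10 CPM or more, grey lines their median, dotted lines 2-fold, and open symbols genes under 10 CPM in both libraries. With no non-endocrine level subtracted, Cntnap2 lies below the band in all 4 classes, at -1.34 in insulin and -1.07 in glucagon cells.

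In glucagon cells 2 of 8 members were higher and 1 lower by 2-fold, against 0.879% and 0.134% of all genes. Both higher members, Cntnap5c (1.77 and 10.7 CPM) and Nrg3 (7.33 and 18.45 CPM), reached 10 CPM only in the library labelled TBL/RβKO. As in insulin cells, the counts describe a list drawn from these values and show nothing more. Cntnap5c was 6.02-fold higher, with 51 UMIs in 25 control cells and 358 UMIs in 60 cells of the library labelled TBL/RβKO, and up to 73 UMIs in a single cell. Nrg3 was 2.52-fold higher, from 211 UMIs in 55 cells and 619 UMIs in 74 cells. Shares of cells with Nrg3 were close, at 4.28% and 4.79% with overlapping intervals, while cells with 5 or more UMIs made up 1.09% and 2.07%. Cntnap2 was lower at a log2 ratio of -1.07 (-1.17 to -0.97), and its ratio became -0.71 once the non-endocrine level was subtracted.

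Nrcam and Ncam2 were also higher in glucagon cells, by 0.89 and 0.91 on the log2 scale, above the middle 90% of all genes, whose upper end was 0.47. Ncam1 (0.17) and Nlgn1 (-0.01) were near the median of all genes, and Nrg1 (-0.19) lay toward the lower end, with 6.43% of genes at or under it. Nrcam UMIs remained in 15.6% of control and 29.5% of the other glucagon cells after thinning. Those intervals (13.6% to 17.7% and 27.2% to 31.8%) do not overlap.

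Somatostatin cells had 0 of 5 members past 2-fold in either direction, against 0.931% of all genes higher and 0.53% lower. Nrg1 came nearest, at 325 and 171 CPM with a log2 ratio of -0.93 (-1.02 to -0.83), which was -0.29 in cells of 1 hormone, and 0.584% of 9241 genes lay at or under it. Cntnap2 (-0.62) and Nlgn1 (-0.43, but 0.36 in cells of 1 hormone) were lower as well, and Ncam1 (0.14) and Ncam2 (0.20) slightly higher. Nrg3 was counted 39 times in the control and 4 times in the library labelled TBL/RβKO, but 20 of the 39 UMIs came from 1 cell and the gene was below 10 CPM in both.

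Polypeptide cells likewise had 0 of 7 members past 2-fold, against 7.13% of all genes higher and 0.474% lower. Nlgn1 (-0.48), Cntnap2 (-0.42, but -0.12 once the non-endocrine level was subtracted) and Nrg1 (-0.26) were lower. Nrcam (0.79), Cntnap5c (0.44), Ncam2 (0.38) and Ncam1 (0.31) were higher, so the median of the 7 was 0.31 beside 0.26 for all genes. Tbl1x was 3.56-fold higher in these cells too, close to its 3.62-fold in insulin cells, and the class rule rests on hormones that differ between the libraries. Which cells of the other library would have been insulin cells in a control was not tested.

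Insulin content differed so strongly between the libraries that the members were also set side by side within ranges of it, chosen after the data had been seen. In these ranges levels are UMIs per 1000000 UMIs left after hormones and mitochondrial genes were taken out, called adjusted CPM. At 50% insulin or more there were 1532 control cells and 141 cells of the library labelled TBL/RβKO, from 30% to 50% 1030 and 380, from 10% to 30% 152 and 574, and from 1% to 10% 163 and 243.

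Cntnap2 was lower in the library labelled TBL/RβKO in each range. From the lowest range up, its levels were 345, 819, 1573 and 1374 adjusted CPM in the control. The other library held 192, 349, 568 and 668 adjusted CPM. Intervals did not overlap in any range, and the log2 ratios ran from -1.47 to -0.85, beside medians of all genes from -0.19 to -0.07. In both libraries Cntnap2 was thus lowest in the cells with the least insulin. Control cells of that range stood apart in RNA content, with a median of 3229 genes and 8431 UMIs without hormones and mitochondrial genes, against 7291 genes and 40144 UMIs in the other library.

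Nlgn1, Nrg1 and Ncam2 behaved in the opposite way along insulin content and were highest below 30% insulin. In the control Nlgn1 stood at 352, 221, 52.9 and 12.02 adjusted CPM from the lowest range up, and in the other library at 122, 75.03, 28.75 and 9.72 adjusted CPM. Over all insulin cells Nlgn1 was at 54.8 and 67.2 adjusted CPM, a log2 ratio of 0.29 on this scale. So Nlgn1 was higher in the library labelled TBL/RβKO over all insulin cells, yet lower in 3 ranges, with overlapping intervals in the highest. Nrg1 went from 656.5 to 31.4 adjusted CPM in the control and from 126 to 9.22 adjusted CPM in the other library, lower in every range.

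Ncam2 was level in the lowest range (154 and 161 adjusted CPM), lower from 10% to 30% (280 and 97.2 adjusted CPM) and from 30% to 50% (48.3 and 32.1 adjusted CPM), and level again in the highest (6.53 and 5.98 adjusted CPM). Over all insulin cells Ncam2 was at 50.6 and 85.75 adjusted CPM, a log2 ratio of 0.76 on this scale. Its higher pooled level in the library labelled TBL/RβKO was therefore not seen within these 4 ranges of all insulin cells. By number of detected genes, in CPM without that adjustment, it was seen in 2 of 3 ranges. The log2 ratios were 1.61 from 4000 to 6000 genes and 0.95 at 6000 or more. From 2500 to 4000 genes Ncam2 went the other way, at -2.95, from 162 UMIs in 210 control cells and 8 UMIs in 50 other cells. Nrcam differed from these, with 12.4 and 40.4 adjusted CPM at 50% insulin or more, 16.85 and 25.8 adjusted CPM from 30% to 50%, and 8.81 and 16.2 adjusted CPM from 10% to 30%. In the lowest range Nrcam was lower in the library labelled TBL/RβKO, at 56.3 and 16.6 adjusted CPM. Ncam1 was lower in all 4 ranges, with log2 ratios from -0.57 to -0.20, beside medians of all genes from -0.19 to -0.07. From 10% to 30% insulin its ratio (-0.20) was close to the median of all genes (-0.19).

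**Figure D4:**
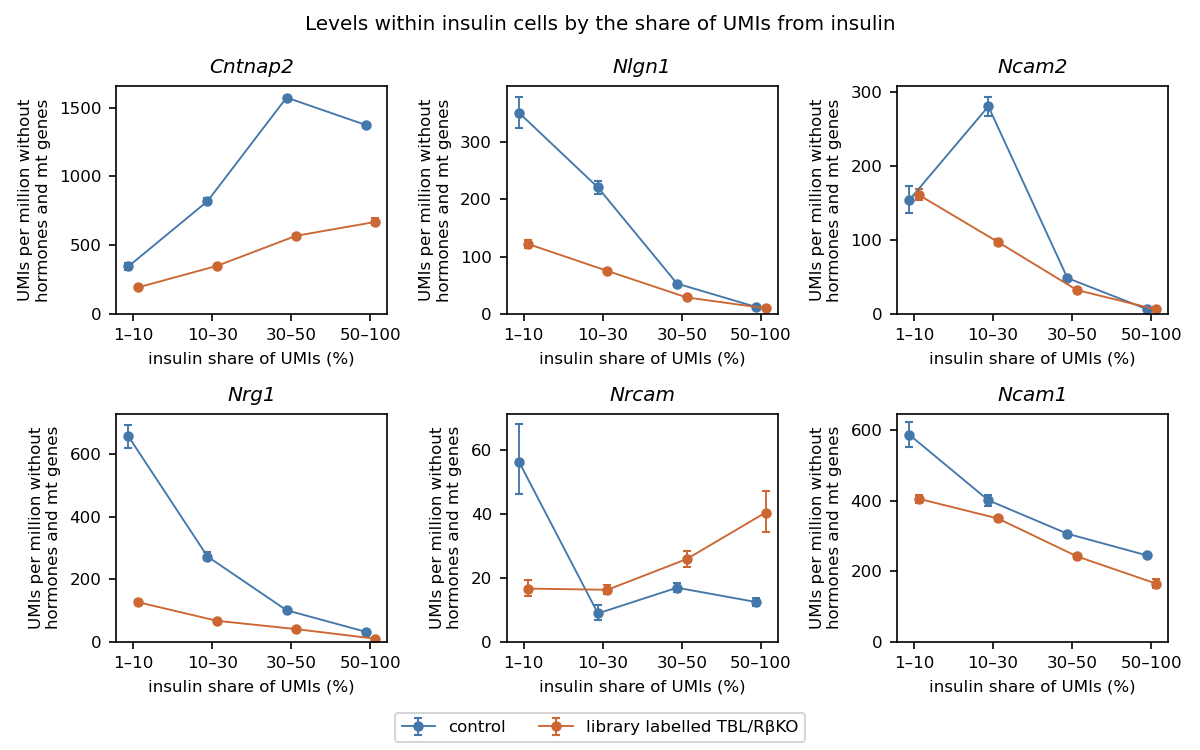
Level of 6 genes within insulin cells (adjusted CPM, without hormones and mitochondrial genes) by the share of a cell's UMIs that came from insulin, for the control (blue) and the library labelled TBL/RβKO (orange), with 95% Poisson intervals. Cntnap2 is lower in the labelled library in each range, and over all insulin cells Nlgn1 and Nrg1 climb toward low insulin in both. Cells with a second hormone are included.

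Cells with a second hormone could carry the genes of other classes into these ranges. A second hormone reached a fraction of 0.1 of the first in 288 control and 626 other insulin cells. Keeping only cells below that, Cntnap2 from 30% to 50% insulin was at 1690 adjusted CPM in 953 control cells and 607 adjusted CPM in 337 cells of the library labelled TBL/RβKO. Nlgn1 there was at 47.8 and 23.7 adjusted CPM and Nrg1 at 95.4 and 35.8 adjusted CPM. From 10% to 30%, 50 control cells held 196.5 adjusted CPM for Nlgn1 and 231 for Ncam2, and 212 cells of the other library 56.8 and 63.3 adjusted CPM. In the lowest range this left 57 of 163 control and 22 of 243 other cells. Nlgn1 there stood at 43.6 and 24.6 adjusted CPM with overlapping intervals, while 3 genes were higher in the library labelled TBL/RβKO, unlike in all cells of that range. These were Ncam1 at 104 and 352 adjusted CPM, Nrcam at 6.81 and 20.5 from 5 and 15 UMIs, and Ncam2 at 2.73 and 53.3 from 2 and 39 UMIs. Ncam2 was found in 1.75% of these control and 4.55% of these other cells, so its UMIs came from a single cell in each library. In these few cells of 1 hormone no further climb of Nlgn1 and Nrg1 was seen from the 10% to 30% range to the lowest range. Nlgn1 was found in 10.5% of the 57 control and 4.55% of the 22 other cells of the lowest range. For Nrg1 the shares were 19.3% and 9.09%, so the course of both genes there rests on few cells. Nrg1 stood at 163.5 and 15.0 adjusted CPM in the lowest range, against 213 and 40.7 adjusted CPM from 10% to 30%.

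Glucagon cells were split by Gcg content in the same manner. At 15% Gcg or more there were 894 control and 674 other cells, from 5% to 15% 314 and 675, and from 1% to 5% 76 and 197. Nrg1 was highest where Gcg was lowest, at 1590, 887 and 629 adjusted CPM in the control from the lowest range up, and at 953, 651 and 477 adjusted CPM in the library labelled TBL/RβKO. Nlgn1 followed the same course, from 644 to 260 and from 520 to 184 adjusted CPM, and both genes were lower in the other library in each range.

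Nrcam was higher in the library labelled TBL/RβKO from 5% to 15% Gcg, at 68.3 and 125 adjusted CPM, and at 15% or more, at 57.7 and 84.8 adjusted CPM. Ncam2 was higher in all 3 ranges, with 136 and 254 adjusted CPM in the lowest. Among the 6 genes plotted, Ncam1 varied least over Gcg content, from 1041 to 669 adjusted CPM in control cells and from 904 to 691 in the others. Cntnap2 was lower from 5% to 15% Gcg (170 and 46.1 adjusted CPM) and at 15% or more (69.1 and 26.9 adjusted CPM), while the intervals overlapped at 1% to 5%. Among cells with 1 hormone from 5% to 15% Gcg, Ncam2 was at 52.7 adjusted CPM in 143 control cells and 198 adjusted CPM in 492 other cells, and Cntnap2 at 55.3 and 35.2 adjusted CPM. No control cell from 1% to 5% Gcg met that limit, as control glucagon cells held a median of 97.1 insulin UMIs per 10000 against 18.6.

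**Figure D5:**
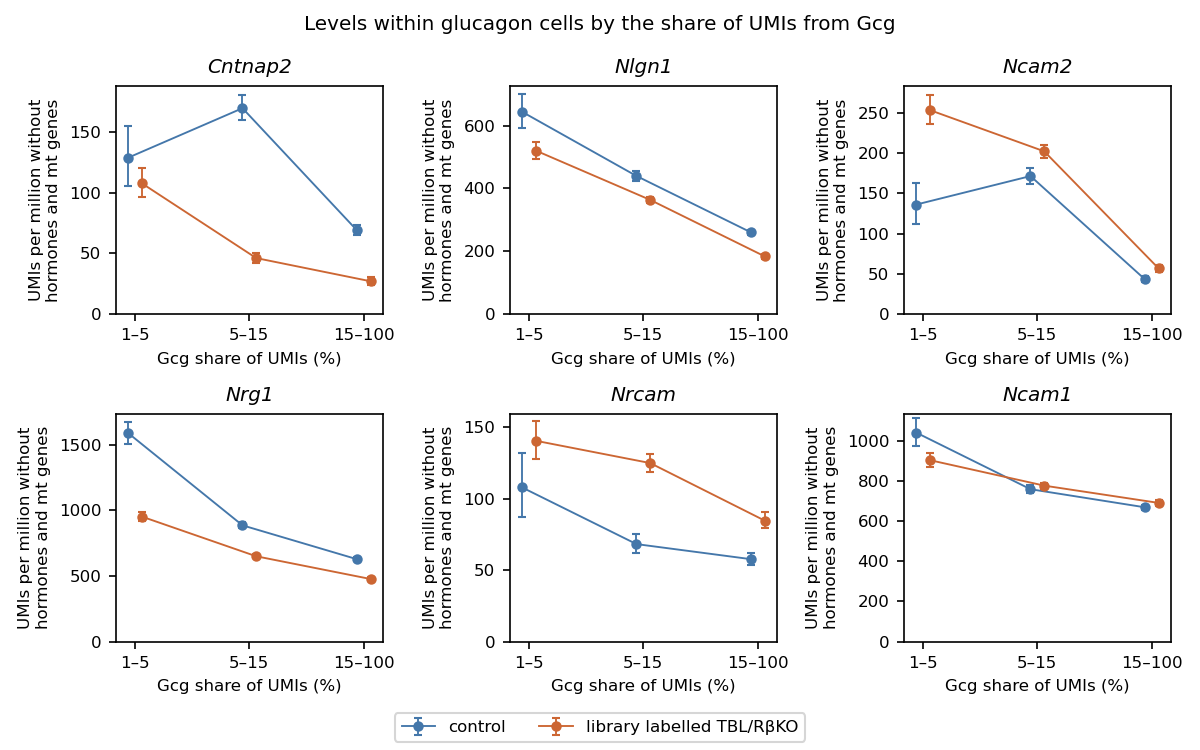
Level of 6 genes within glucagon cells (adjusted CPM, without hormones and mitochondrial genes) by the share of a cell's UMIs that came from Gcg, for the control (blue) and the library labelled TBL/RβKO (orange), with 95% Poisson intervals. Nrg1 and Nlgn1 decline with rising Gcg in both libraries, and Nrcam and Ncam2 sit higher in the labelled library.

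Within a class, UMIs of most members were held by a minority of cells. In control insulin cells the 10% of cells with the most UMIs held 94.7% of Ncam2, 84.3% of Nlgn1 and 77.6% of Nrg1 UMIs, but 35.8% of Cntnap2 and 29.5% of Ncam1 UMIs. The Cntnap2 share was 55.2% in the library labelled TBL/RβKO, where the median insulin cell held 5 Cntnap2 UMIs against 24 in the control. As a description, the thinned counts of Nlgn1 and Nrg1 correlated across 2877 control insulin cells at Pearson r = 0.42, and Ncam1 with Nrg1 at 0.40. Across 1338 insulin cells of the library labelled TBL/RβKO the same pairs were at 0.21 and 0.14. Cells within each r share 1 library and its insulin content. Cntnap2 had r = -0.06 to Nrg1 among control cells and 0.01 among the others.

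Partner genes of the members were listed by family, 42 in all, and every one was in the files. In insulin cells 16 of them reached 10 CPM, of which 4 were higher and 0 lower by 2-fold, beside 8.27% and 1.25% of all genes, with a median log2 ratio of 0.61 beside 0.31 for all genes. Those with the largest ratios were Dlg2, a scaffold at synapses (28.2 and 87.1 CPM, log2 1.63), Nfasc, the L1 family protein of the axon initial segment (43.6 and 124 CPM, 1.51), and Ank2, an ankyrin that L1 family proteins bind (237 and 537 CPM, 1.18). Those with the smallest were Egfr, the ErbB family receptor of EGF (25.3 and 20.99 CPM, -0.27), Dlg1, another synaptic scaffold (69.7 and 66.15 CPM, -0.07) and Bace1, a protease that cuts neuregulins (17.4 and 17.7 CPM, 0.02).

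The ErbB receptors of the neuregulins were low in insulin cells, with Erbb3 at 1.25 and 3.12 CPM and Erbb4 at 0.148 and 0.802 CPM, and were named after their values were seen. In glucagon cells 2 of 20 partner genes were higher and 0 lower by 2-fold, in somatostatin cells 0 of 19 either way, and in polypeptide cells 4 of 21 higher and 1 lower. Of all genes, 0.879% were higher and 0.134% lower in glucagon cells, 0.931% and 0.53% in somatostatin cells, and 7.13% and 0.474% in polypeptide cells. Relative to the median of all genes the partner genes higher by 2-fold numbered 2 in insulin, 0 in glucagon and 3 in polypeptide cells. Those lower by 2-fold numbered 0, 0 and 1, the last being Nrxn3 (-1.76). Ank2 was among those under 2-fold in insulin cells on this scale (0.86). The share of all genes past 2-fold on this scale is not given here.

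The genes most like each member were sought over 10 sums, 5 classes in each library, among 11416 genes. The closest were Ppp1r1a for Cntnap2 (Pearson r = 0.96), Cdo1 for Nlgn1 (0.98), Tmem178b for Ncam1 (0.99), Hunk for Ncam2 (0.98), Agrp for Nrg1 (0.99) and Fads2 for Nrcam (0.97). Col6a6 and Vstm2l followed for Cntnap2, Ssbp2 and Sema3e for Nlgn1, Stxbp4 and Cdin1 for Ncam1, Zdhhc15 and Asic2 for Ncam2, Dpp10 and Dcaf17 for Nrg1, and Zfp651 and Adarb2 for Nrcam. The sparse members had looser matches, Lin7a for Cntnap5a (0.90), P2rx4 for Cntnap5c (0.86) and Sned1 for Nrg3 (0.88). Among the members, Nlgn1 was alike to Nrg1 and Ncam2 (0.84 each) while Cntnap2 was closest to Ncam2 (0.36). These sums share 2 libraries, so the values describe likeness over cell classes.

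The members were also set beside other long genes. Of genes spanning 500 kb or more at 10 CPM, 26.3% of 133 were higher and 5.26% lower by 2-fold in insulin cells, and their median log2 ratio was 0.51 beside 0.31 for all genes. In glucagon cells 157 such genes had a median of 0.22 beside 0.10. The part that gene length plays in the members' ratios was not tested. Cntnap2, the longest member, lay on the other side of both medians.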

How the data were processed

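The authors made raw UMI counts per gene and barcode with Cell Ranger 7.1.0, standard parameters and filtered barcodes, and deposited 1 matrix per library, holding 7067 control and 5833 TBL/RβKO barcodes with 241434108 and 185062206 UMIs. Intron counting was left at the software's default as far as stated. The values are counts with no removal of free RNA or doublets that the files show. Barcodes were filtered, classed by hormone and summed as described with Python 3.11.15, using scipy 1.17.1, scanpy 1.11.5, pandas 2.3.3, numpy 2.4.6 and matplotlib 3.10.9. Levels carry exact Poisson intervals, shares exact binomial (Clopper-Pearson) intervals, and ratios exact conditional binomial intervals. They cover counting error only, and no test between groups was possible with 1 library each. Functions for ratios and intervals were tested on simulated data. All 9 members are named. Partner genes are named by the 3 largest and 3 smallest log2 ratios in insulin cells at 10 CPM or more, and similar genes by the 3 highest correlations of log2(CPM + 1), or the first alone for the sparse members. Members, marker lists and partner lists were chosen with earlier results of these data known. Scrublet marked 2 and 1 barcodes by its own threshold and so had not worked. As an alternative the highest scores were removed (314 and 219 kept cells).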

Additional observations from a re-analysis of the deposited data

Results flagged for a closer look

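Nlgn1, Nrg3 and Cntnap5a had ratios of opposite sign in different hormone classes, with counting intervals on opposite sides of 0. The difference between classes was not tested, since each class has 1 library per group. Nlgn1 was higher in insulin cells of the library labelled TBL/RβKO (log2 0.75) and lower in somatostatin (-0.43) and polypeptide cells (-0.48). In adjusted CPM its ratio over all insulin cells was 0.29, and in 3 of 4 ranges of insulin content Nlgn1 was lower in insulin cells as well. Nrg3 was higher in glucagon cells (1.33) and lower in somatostatin (-4.24) and polypeptide cells (-1.60), on 4 to 619 UMIs a class. Cntnap5a was higher in insulin cells (3.98) and lower in polypeptide cells (-0.60), on 23 to 201 UMIs.

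Barcodes with 2500 genes or fewer, left out above, were 2017 for the control and 1335 for the library labelled TBL/RβKO. In the latter, the sums over all classes put 7 members above the control level, with intervals that do not overlap. There Ncam1 stood at 332 CPM against 269 CPM for control barcodes, and Nrg1 at 269 against 181 CPM. Nlgn1 was at 130.1 against 48.9 CPM, Ncam2 at 57.3 against 14.4 CPM and Nrcam at 57.1 against 27.0 CPM. The sparse Nrg3 was at 14.3 against 2.85 CPM and Cntnap5c at 8.73 against 1.36 CPM. Cntnap2 went the other way, at 81.0 CPM against 1284 CPM for control barcodes. The make-up of these sums differed, as 1872 control and 597 other barcodes were of the insulin class, with a median of 28.1% and 43.8% mitochondrial UMIs. No intervals were computed for sums of 1 class, so directions within a class are not set against counting error. Over all classes the control and the other library held only 10 and 39 UMIs of Cntnap5c and 21 and 64 of Nrg3. Their values within a class are therefore given without a direction. Within the insulin class the direction turned for Ncam1, Nrg1 and Nlgn1, and Cntnap2 stayed lower (105.7 against 1429 CPM). Ncam1 was at 114 against 249 CPM for control barcodes, Nrg1 at 77.1 against 136 CPM and Nlgn1 at 29.2 against 37.7 CPM. Ncam2 (19.9 against 14.9 CPM) stayed higher, while Nrcam was at 24.2 against 23.9 CPM. Nrg3 was at 3.11 against 2.435 CPM and Cntnap5c at 0 against 1.22 CPM. Within the glucagon class, also without intervals, Nrg1 was lower (620 against 680 CPM), and the sparse Nrg3 was at 3.14 against 7.73 CPM. Ncam1 (710 against 522 CPM), Nlgn1 (223 against 151.5 CPM) and Nrcam (125.5 against 64.9 CPM) stayed higher there. So did Ncam2 (72.15 against 9.27 CPM), and the sparse Cntnap5c was at 10.98 against 1.55 CPM.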

How the results depend on the processing

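No paired analysis was possible because each group has 1 library, and both carry the number 1. Limits are the single library per group, classes that rest on hormones which differ between the libraries, free RNA, and sparse counts of Cntnap5a, Cntnap5c and Nrg3. Alternatives were run one at a time, and the subtraction of the non-endocrine level and the ranges of insulin and Gcg were chosen after seeing the data. Cntnap2 in insulin cells stayed lower, between -1.79 and -0.94 (log2). The share of all genes past 2-fold is not given for the alternatives, so the counts of members that follow describe the list only. In insulin cells 2 members were lower by 2-fold with fewer than 6000 genes, with a mean over cells and with thinning to 5000 UMIs, the second being Nrg1 (-1.26, -1.08 and -1.20), and 0 were lower in cells of 1 hormone. Of members higher there, 0 were left when scaling without hormones and mitochondrial genes or relative to the median of all genes, and 2 were counted at a class limit of 500 or under 5% mitochondrial UMIs, with Nrcam (1.02 and 1.01) beside Ncam2. Nlgn1 in insulin cells ranged from -0.18 to 0.95 and Ncam2 from 0.59 to 1.39. In glucagon cells 1 member was higher at a class limit of 500 and under 5% mitochondrial UMIs, and 0 were lower under 5% mitochondrial UMIs, in cells of 1 hormone and after subtraction, where Cntnap2 stood at -0.92, -0.86 and -0.71. With fewer than 6000 genes 1 member was lower in somatostatin cells (Nrg1, -1.04), where Cntnap5c turned to -2.61 on few UMIs. In polypeptide cells 1 was higher with fewer than 6000 genes, with a mean over cells (Nrcam, 1.25 and 1.08) and in cells of 1 hormone (Cntnap5c, 1.12), and 1 was lower in cells of 1 hormone (Cntnap2, -1.49) and with thinning (Nrg3, -2.63). The cause of these moves was not tested.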
